A study of Mus musculus with 6 samples.

Results

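RhoGAPs and RhoGEFs switch small GTPases that shape the actin cytoskeleton, and the genes described here are the members of these families whose annotated mouse symbol begins with Arhgap or Arhgef followed by a number. Of 18193 genes with a probe set of 1 gene symbol, 55 met this rule, 32 RhoGAP genes, 22 RhoGEF genes and the antisense transcript Arhgap20os, which shares the prefix but encodes no GAP. They had 128 probe sets, 17 genes had only 1, and the set with the highest mean intensity over the 6 arrays stands for each gene. All 55 symbols matched the current RefSeq symbol of the same gene identifier.

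A GEF loads its GTPase with GTP and so turns it on, and a GAP speeds the hydrolysis of that GTP and so turns it off. Among the GTPases they act on, Rac and Cdc42 drive membrane protrusion. LPAR1 is a receptor of the lipid lysophosphatidic acid, which occurs in serum and makes fibroblasts build stress fibres through RhoGEFs coupled to G proteins.

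The cells were NIH3T3, a line of mouse embryonic fibroblasts, with mutant LPAR1 (3 arrays) or wild-type LPAR1 (3 arrays). Harvest was at 0, 60 and 120 minutes, and every combination of genotype and time has a single array. The labels do not give the mutation, the agent or event that starts the clock, or the number of cultures or clones. No 2 arrays share a genotype and time, so SE and p-values hold no spread between repeats of a condition. They rest on how unevenly the difference between genotypes ran across the times, with variances moderated across genes. They cannot tell the mutation from another difference between the 2 cell populations. All values are Affymetrix probe-set intensities on a linear scale. Log2 differences and folds are of intensity + 16, and their precision is bounded by there being only 6 arrays.

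Mean intensity lay between 299 and 308 per array. All 9 fibroblast markers measured were above the filter level of 39.2 described below, with a summed intensity of 56938 to 57704 on mutant and 57632 to 58936 on wild-type arrays. Of the other markers, 3 of 6 epithelial, 2 of 6 haematopoietic, 1 of 4 endothelial and 1 of 4 neural genes were above it, and none of the 4 muscle and 2 adipocyte genes. Lpar1 averaged 1483 ± 39.4 in mutant and 1305 ± 26.4 in wild-type cells (SD, n = 3 each), a log2 difference of 0.18 ± 0.045 (SE; adjusted p = 0.0209). Signal at the 5′ end of the Actb control transcript divided by that at its 3′ end, which falls where RNA is degraded or labelled short, was 0.505 (mutant) and 0.579 (wild-type) at 0 minutes and between 0.650 and 0.699 on the later arrays, so it moved with time, and its part in the time differences below was not tested. The same ratio for Gapdh was 0.954 (mutant) and 1.02 (wild-type) at 0 minutes and between 0.991 and 1.03 later, and in wild-type cells it did not move with time in the way that of Actb did.

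A gene was tested if its mean log2 level lay at or above the 40th percentile of all genes, which corresponds to an intensity of 39.2. This left 35 members, 22 RhoGAP and 13 RhoGEF genes, among 10916 genes. Genotype and time entered 1 additive limma model of all these genes, and the threshold was a Benjamini-Hochberg adjusted p of 0.05 over all of them.

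The comparison of genotypes asks how the cells with mutant LPAR1 differed across the 3 times. Arhgap24, Arhgap44 and Arhgap31 were the members that differed most, and all 3 were lower in mutant cells. These 3 encode GAPs that act on Rac or Cdc42. Arhgap9, which also encodes such a GAP, and the Rac GAP homologue Arhgap39 were higher (log2 0.47 and 0.35). Of the 35 tested members, 10 passed (28.6%), against 19.4% of all genes tested. Higher were 5 members (14.3%, against 10.4% of all genes), and lower were 5 (14.3%, against 8.95%). All 5 higher members were RhoGAPs, and the lower members were 3 RhoGAPs and 2 RhoGEFs. Of the 10, Arhgap24, Arhgap44 and Arhgap9 were tested through 1 genotype alone, the other being below the filter level on average, so nothing is read from the shares. Non-overlap of the genotypes is stated below gene by gene. It was not counted over all genes tested, so nothing is read from it. Arhgef11 did not overlap either (141 to 154 on mutant and 133 to 138 on wild-type arrays) and did not pass. The summed intensity of the 4 endothelial markers was 95.0 to 111 on mutant and 51.2 to 65.6 on wild-type arrays. It differed mainly through Cdh5 (61.4 to 64.6 against 22.4 to 27.4). Pecam1, Kdr and Tek were below the filter level. Pecam1 and Tek were higher on mutant arrays at each time, and Kdr was lower there at 0 and 60 minutes and higher at 120. The part of these markers in the differences between genotypes was not tested.

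Arhgap24 encodes FilGAP, a Rac GAP that binds the actin crosslinker filamin A. In mutant cells its intensity was 10.01 at 0, 12.2 at 60 and 9.23 at 120 minutes, against 160, 175 and 142 in wild-type cells. All 3 mutant arrays lay below the filter level and all 3 wild-type arrays above it, so the size of the difference has only a bound. Set against the filter level, Arhgap24 was at least 3.16-fold lower in mutant cells, a bound that was not itself tested. The fitted log2 difference of -2.72 ± 0.095 (limma adjusted p = 2.57e-07) is no measured size. It was -3.80 with an offset of 1 and -1.58 with 64. The other Arhgap24 probe set, with a mean of 16.02 and so below the filter level, differed by 0.09. Averaging both sets gave -1.31.

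Arhgap44 encodes RICH2, a GAP with a membrane-bending BAR domain. Its only probe set read 44.4, 33.5 and 28.1 at 0, 60 and 120 minutes in mutant cells, against 119, 134 and 96.7 in wild-type cells. The groups did not overlap, and mutant cells were lower at each time (log2 -1.15, -1.60 and -1.35). The mutant arrays of 60 and 120 minutes were below the filter level, as was the mutant mean of 35.3, and with those 2 arrays set at that level the gene was at least 2.31-fold lower in mutant cells. The fitted difference was -1.37 ± 0.10 (adjusted p = 3.18e-05), or -1.70 at offset 1 and -0.86 at offset 64.

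Arhgap31 encodes CdGAP, which acts on Cdc42 and Rac. It read 282, 284 and 273 in mutant cells, against 547, 535 and 474 in wild-type cells, so it was 1.81-fold lower in mutant cells and the groups did not overlap (log2 -0.85 ± 0.059; adjusted p = 1.52e-05). Its 3 other probe sets, all below the filter level, differed by -0.38, -0.08 and -0.27, and the mean over all sets gave -0.40.

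Of the 35 tested members, only these 3 were lower by 1.5-fold or more at each of the 3 times, against 0.678% of all genes tested. Nothing is read from this count, since Arhgap24 and Arhgap44 passed the filter through wild-type cells alone. By the same measure no member was higher, against 0.458% of all genes.

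The 2 RhoGEFs that were lower differed less. Arhgef5 read 183, 194 and 197 in mutant cells, against 248, 244 and 229 in wild-type cells (log2 -0.30 ± 0.068; adjusted p = 0.0136). Arhgef7 encodes beta-PIX, a Rac and Cdc42 GEF that works in a complex with GIT proteins and PAK kinases, and it read 288, 293 and 344 against 368, 341 and 432 (log2 -0.29 ± 0.060; adjusted p = 0.00948). Mutant values were lower at each time for both genes, and for Arhgef7 the groups overlapped across times, since the mutant array of 120 minutes exceeded the wild-type array of 60 minutes. Without either 0 minute array the Arhgef5 call was lost (adjusted p = 0.0857 without the mutant and 0.0913 without the wild-type array, log2 -0.25). In a comparison of genotypes, leaving out either array of a time leaves the same array pairs to inform the difference. Such fits are thus not separate checks, here and for Arhgap39 and Arhgap22 below. They also have fewer residual degrees of freedom, and the part of this in the losses was not tested. The dim second probe set of Arhgef7 (mean 8.43) differed by -0.01, and averaged with it Arhgef7 no longer passed (log2 -0.15; adjusted p = 0.140).

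**Figure D1:**
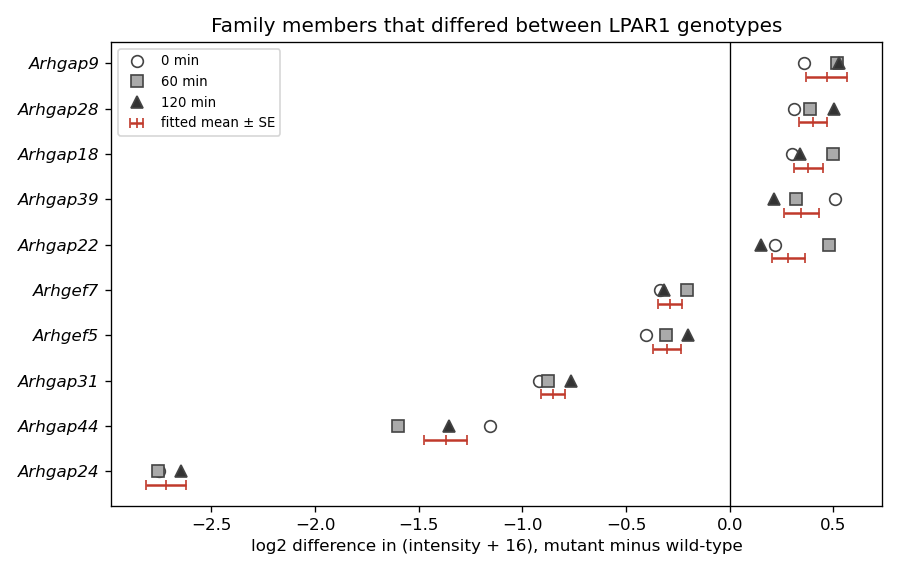
Log2 difference in intensity + 16 between mutant and wild-type cells (x axis) for the 10 members that passed (rows), at 0 minutes (open circles), 60 minutes (grey squares) and 120 minutes (black triangles), with the fitted mean and its SE in red. All 3 points of a gene lie on the same side of 0, and Arhgap24, Arhgap44 and Arhgap31 lie farthest from it. For Arhgap24 all 3 mutant arrays were below the filter level, so its points have no measured size.

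Among the higher members, Arhgap9 encodes a GAP for Cdc42 and Rac known from blood cells. It read 53.6, 66.7 and 58.1 in mutant cells, against 38.2, 41.8 and 35.5 in wild-type cells. The groups did not overlap (log2 0.47 ± 0.098; adjusted p = 0.0101), although 2 of the 3 wild-type arrays were below the filter level, and its 3 dimmer probe sets differed by 0.24, 0.54 and 0.55. The summed level of the 6 haematopoietic markers was 328 to 341 on mutant and 372 to 410 on wild-type arrays, and their part was not tested. Cd14 (211 to 232 on mutant and 250 to 294 on wild-type arrays) and Csf1r (51.2 to 75.7 and 70.8 to 85.6) were above the filter level. Ptprc (18.3 to 21.8 and 13.9 to 17.0) and Cd68 (15.99 to 18.7 and 13.2 to 15.8) were below it and higher on mutant arrays at each time, and Cd3e and Cd79a were below it too.

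Arhgap28, which encodes a GAP reported to act on RhoA, was higher in mutant cells at every time, with 359, 357 and 157 against 286, 269 and 106 (log2 0.40 ± 0.066; adjusted p = 0.00318). Of its other probe sets, 1 above the filter level differed by 0.22 and a dim one by 0.18. The ranges overlapped, because both genotypes fell by 120 minutes. Arhgap18, another RhoA GAP, read 205, 258 and 238 against 164, 178 and 185 with no overlap (log2 0.38 ± 0.069; adjusted p = 0.00516), and its second probe set differed by 0.34.

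Arhgap39, the mouse homologue of the Drosophila Rac GAP Vilse, read 158, 135 and 116 in mutant cells, against 107, 105 and 98 in wild-type cells (log2 0.35 ± 0.083; adjusted p = 0.0185). Its 2 other probe sets, both above the filter level, differed by -0.11 and 0.22, and the call was lost without the mutant array of 0 minutes (adjusted p = 0.147) or the wild-type one (adjusted p = 0.135), and with all sets averaged (log2 0.15; adjusted p = 0.157). Arhgap22, a relative of FilGAP, read 145, 195 and 284 against 122, 136 and 254 (log2 0.28 ± 0.079; adjusted p = 0.0343). Without the mutant or the wild-type array of 60 minutes the Arhgap22 difference was 0.18 (adjusted p = 0.216 and 0.207), and its call was also lost with no filter (0.0579) and without the variance trend (0.0614).

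**Figure D2:**
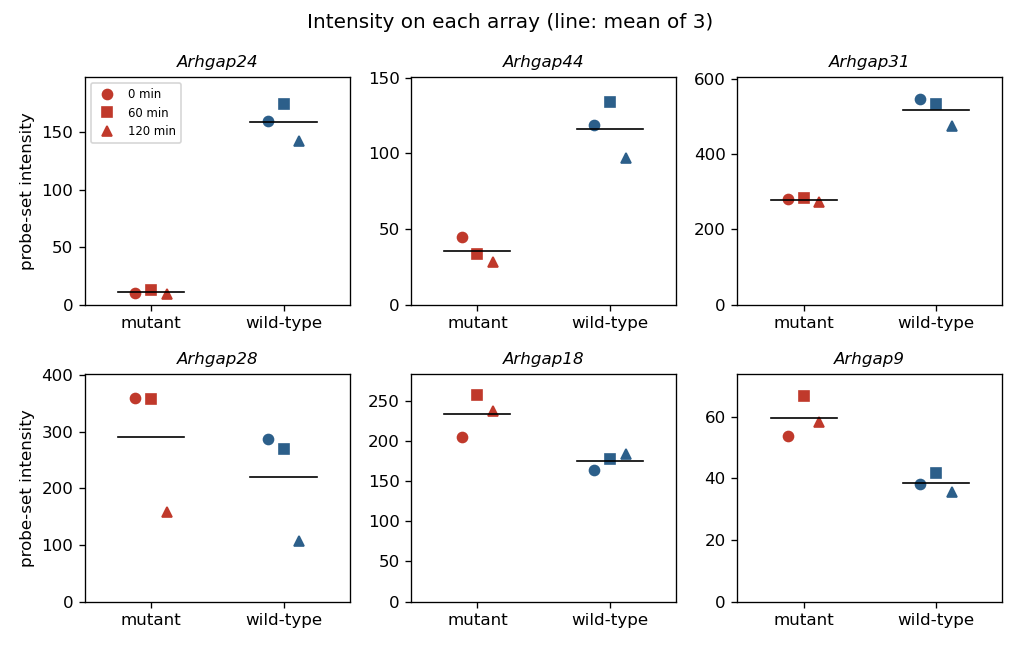
Probe-set intensity (y axis, linear, from 0) on each array for 6 members that differed between genotypes, mutant arrays on the left in red and wild-type arrays on the right in blue, with circles for 0, squares for 60 and triangles for 120 minutes and a line at the mean of 3 arrays. Arhgap24, Arhgap44, Arhgap31, Arhgap18 and Arhgap9 show no overlap between genotypes, whereas Arhgap28 overlaps through its low 120 minute values.

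The other 25 tested members did not pass, with log2 differences between -0.18 (Arhgef18) and 0.12 (Arhgef11). They included the RhoGEFs with an RGS domain that are activated by Gna12 and Gna13. Arhgef1, Arhgef11 and Arhgef12 had log2 differences of -0.15 ± 0.069, 0.12 ± 0.071 and -0.11 ± 0.060 (adjusted p = 0.170, 0.264 and 0.238). The p190 RhoGAPs Arhgap5 and Arhgap35 had differences of -0.06 ± 0.049 and 0.07 ± 0.055 (adjusted p = 0.468 and 0.391). The median over the 35 members was -0.03, against 0.01 over all genes tested. Without the block on time, by which the arrays are paired, 3 members passed and 91 of all genes, and the 3 were Arhgap24, Arhgap44 and Arhgap31. Arhgap24 and Arhgap44 passed the filter through wild-type cells alone, so nothing is read from this count.

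The comparison of 60 with 0 minutes shows what changed in both genotypes in the first hour, and few members changed. Of the 35 members 4 passed (11.4%), against 18% of all genes. The count was 1 higher (2.86%, against 7.34% of all genes) and 3 lower (8.57%, against 10.7%), or 3 higher and 2 lower after quantile normalization. Over the same hour all 13 immediate early genes on a textbook list rose, with a median log2 difference of 2.27, and 10 of 12 genes of the SRF and MRTF pathway, which responds to actin, rose with a median of 0.97. The median member differed by -0.04, and the median of all genes tested by -0.07.

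Arhgap23, a paralogue of the Cdc42 GAP gene Arhgap21, was the member that rose. It read 530, 772 and 748 at 0, 60 and 120 minutes in mutant cells, and 632, 839 and 810 in wild-type cells. In both genotypes the later values lay above those at 0 minutes (log2 0.46 ± 0.065 at 60 minutes; adjusted p = 0.000849). Its 2 other probe sets, with means of 13.0 and 2.22, differed by 0.15 and -0.07, and averaged with them it no longer passed (adjusted p = 0.155).

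The 3 members that fell were RhoGEFs. Arhgef25 encodes a GEF that is activated by Gna11 and Gnaq proteins, and it read 1132, 970 and 855 in mutant and 1254, 934 and 870 in wild-type cells (log2 -0.32 ± 0.066 at 60 minutes; adjusted p = 0.00806). Arhgef1 read 178, 144 and 142 in mutant and 195, 157 and 166 in wild-type cells (log2 -0.29 ± 0.084; adjusted p = 0.0430), with its dim second probe set at 0.14. Arhgef10 read 426, 340 and 344 in mutant and 423, 376 and 378 in wild-type cells (log2 -0.24 ± 0.073; adjusted p = 0.0491), with a dim set of it at -0.04. All 3 were lower at 60 and at 120 minutes than at 0 in each genotype.

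These falls were close to the threshold. The count of members that passed was 2 without the mutant array of 0 minutes or that of 60 minutes, 1 without the wild-type array of 0 minutes and 2 without that of 60 minutes, and Arhgap23 was called each time. The Arhgef25 call was lost without the wild-type array of 0 (adjusted p = 0.116) or 60 minutes (adjusted p = 0.0753). Those of Arhgef1 (adjusted p = 0.129 to 0.249) and Arhgef10 (adjusted p = 0.0835 to 0.405) were lost without any one of the 4 arrays of these times. With no filter or with probe sets averaged Arhgef1 (adjusted p = 0.0756 and 0.524) and Arhgef10 (0.0758 and 0.160) did not pass, nor did Arhgef1 after quantile normalization (0.0535) or Arhgef10 at offset 1 (0.0510) or without the trend (0.0793). With genotype left out none of the 4 members passed.

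By 120 minutes 18 of the 35 members differed from 0 minutes (51.4%), against 47% of all genes. Lower were 13 members (37.1%, against 30.8%), and higher were 5 (14.3%, against 16.2%), so the family's shares lay near those of all genes. After quantile normalization 10 were lower and 7 higher. In both genotypes 24 of the 35 members were lower at 120 than at 0 minutes and 7 were higher. The same count was not made over all genes, so nothing about the family is read from it. The median member differed by -0.16, against -0.09 over all genes tested. Both time comparisons share the 0 minute arrays.

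Arhgap28 fell most. Its intensity of 359 and 357 at 0 and 60 minutes in mutant cells was followed by 157 at 120 minutes, and in wild-type cells values of 286 and 269 were followed by 106. In both genotypes the level differed little over the first hour and was lowest at 120 minutes. The log2 difference from 0 to 120 minutes was -1.21 ± 0.081, a 2.31-fold fall (adjusted p = 2.44e-06). Its second probe set above the filter level differed less, by -0.42, and a dim set by -0.02.

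Arhgap12 and Arhgap11a were also lowest at 120 minutes. Arhgap12, a Rac GAP, read 441, 429 and 249 in mutant and 431, 387 and 249 in wild-type cells (log2 -0.77 ± 0.073; adjusted p = 2.14e-05), with its other set above the filter level at -0.31 and 2 dim sets at -0.23 and -0.26. Arhgap11a, which encodes a RhoA GAP of dividing cells, read 319, 285 and 178 in mutant and 285, 287 and 164 in wild-type cells (log2 -0.77 ± 0.079; adjusted p = 3.84e-05). All 13 mitotic and cytokinesis genes on a textbook list were lower at 120 than at 0 minutes, with a median log2 difference of -0.63, and so were the cytokinesis GEF gene Ect2 (-0.74 ± 0.082) and the cytokinesis GAP gene Racgap1 (-0.81 ± 0.068). In these bulk samples fewer cells in division and less RNA per cell cannot be told apart.

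Arhgef18 encodes p114RhoGEF, a RhoA GEF of cell junctions. It read 436, 399 and 287 in mutant and 519, 433 and 325 in wild-type cells, and so declined at each step (log2 -0.61 ± 0.071 at 120 minutes; adjusted p = 7.87e-05). Its 3 other probe sets were below the filter level and differed by -0.27, -0.08 and 0.07, and averaged with them it no longer passed (adjusted p = 0.0523).

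The next falls were of RhoGEF genes. Arhgef25 was lower by then by log2 -0.46 ± 0.066 (adjusted p = 0.000320), although 1 of its 3 other probe sets, above the filter level, differed by 0.01. Arhgef2 encodes GEF-H1, a RhoA GEF held inactive on microtubules, and it read 839, 860 and 625 in mutant and 836, 862 and 605 in wild-type cells (log2 -0.44 ± 0.060; adjusted p = 0.000259). Arhgef2 values were nearly equal in the 2 genotypes and level over the first hour. Arhgef19, which encodes WGEF, differed by -0.37 ± 0.094, and its call was lost without the mutant (adjusted p = 0.0885) or the wild-type array of 0 minutes (adjusted p = 0.0653) and with genotype left out (0.0527).

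Arhgap21, which encodes a Cdc42 GAP of the Golgi, differed by -0.36 ± 0.063, and its second probe set by -0.29. Arhgap44 differed by -0.36 ± 0.13 (limma adjusted p = 0.0444), with both genotypes lower at 120 than at 0 minutes. Its mutant array of 120 minutes was below the filter level, so the mutant fall has no measured size. The Arhgap44 call was lost under 7 of 13 alternatives. These were offset 64 (adjusted p = 0.0556), no filter (0.0700), quantile normalization (0.0731), genotype left out (0.748), and leaving out the mutant array of 0 (adjusted p = 0.447), the mutant array of 120 (0.0821) or the wild-type array of 120 minutes (0.116). Arhgef1 differed by -0.26 ± 0.084 (adjusted p = 0.0300) and its dim second set by 0.23, and its call was lost without any one of the 4 arrays of 0 and 120 minutes (adjusted p = 0.0505 to 0.186), with no filter (0.0532), with probe sets averaged (0.908), after quantile normalization (0.0750) and with genotype left out (0.150). The last 3 members lower at 120 minutes were Arhgap5 (log2 -0.24 ± 0.060), Arhgef10 (-0.23 ± 0.073) and the RhoA GAP gene Arhgap29 (-0.19 ± 0.070). Their limma adjusted p were 0.00817, 0.0279 and 0.0447. The other Arhgap5 sets, all above the filter level, differed by -0.06, 0.09 and -0.19. Another Arhgef10 set above the filter level differed by -0.24 and a dim one by 0.09.

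Arhgap22 rose most, to 284 at 120 minutes in mutant cells after 145 at 0 and 195 at 60 minutes, and to 254 in wild-type cells after 122 and 136. The 120 minute values lay above all others of the same genotype (log2 0.93 ± 0.097, a 1.91-fold rise; adjusted p = 4.03e-05). Arhgef17, which encodes TEM4, read 216, 276 and 359 in mutant and 250, 280 and 374 in wild-type cells, a stepwise rise in both (log2 0.62 ± 0.078; adjusted p = 0.000137). Its 2 other probe sets above the filter level differed by 0.41 and 0.29, and the 2 below it by -0.22 and 0.41.

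Arhgap23 stayed higher at 120 minutes (log2 0.42 ± 0.065; adjusted p = 0.000556), with its 2 dim sets at 0.04 and 0.04, and it did not pass with sets averaged (adjusted p = 0.130). Arhgap17, which encodes RICH1, a Cdc42 and Rac GAP of cell junctions, read 284, 301 and 353 in mutant and 293, 303 and 430 in wild-type cells (log2 0.41 ± 0.084; adjusted p = 0.00267). The rise came after 60 minutes in both genotypes, while another Arhgap17 probe set above the filter level differed by -0.03 from 0 to 120 minutes and a dim one by 0.04, and with all sets averaged the call was lost (log2 0.14; adjusted p = 0.229). Arhgef7 differed by 0.23 ± 0.073 (adjusted p = 0.0247), and its call was lost without the mutant array of 0 (adjusted p = 0.200) or 120 (0.0551) or the wild-type array of 0 (0.0721) or 120 minutes (0.111), and with genotype left out (0.344). Without the mutant array of 0 minutes 11 members passed in place of 18, and 11 when each gene's probe sets were averaged.

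**Figure D3:**
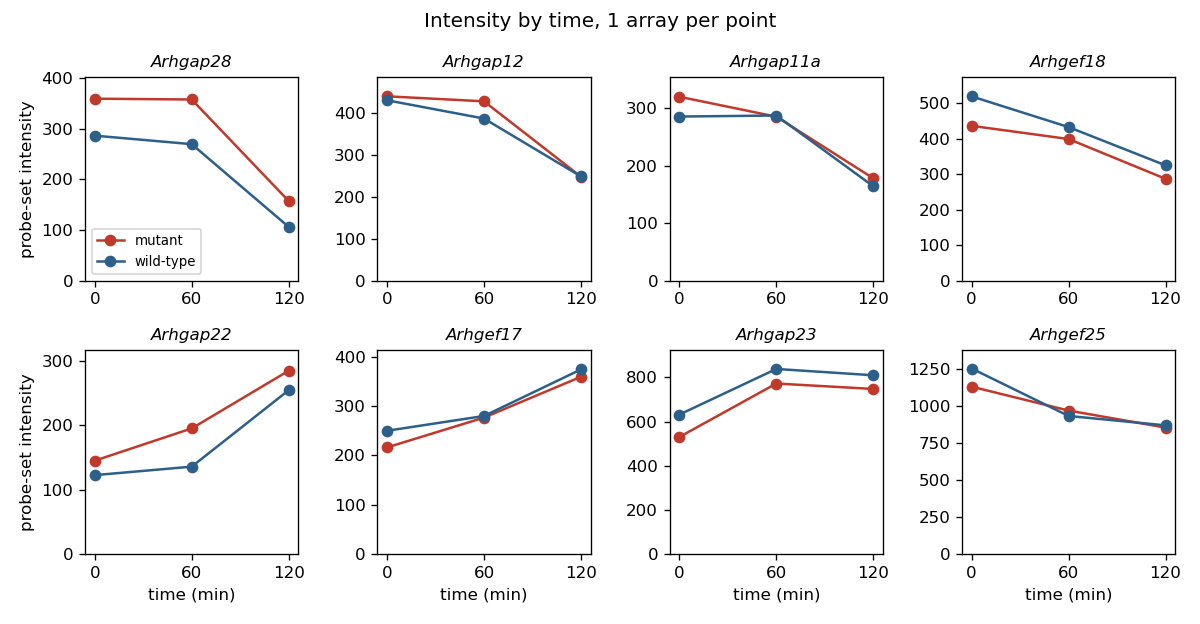
Probe-set intensity (y axis, linear, from 0) against time in minutes for 8 members that changed with time, mutant cells in red and wild-type cells in blue, 1 array per point. Arhgap28, Arhgap12 and Arhgap11a differ little between 0 and 60 minutes and are lowest at 120 minutes, Arhgap22 and Arhgef17 are highest at 120 minutes, and Arhgap23 is higher at both later times.

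The step from 60 to 120 minutes was compared directly. Of the 35 members 11 differed between 120 and 60 minutes (31.4%), against 25.1% of all genes, with 4 higher (11.4%, against 10.2%) and 7 lower (20%, against 14.9%). Arhgap28 (log2 -1.16 ± 0.081), Arhgap11a (-0.69 ± 0.079), Arhgap12 (-0.68 ± 0.073), Arhgef2 (-0.48 ± 0.060), Arhgef18 (-0.42 ± 0.071), Arhgap21 (-0.31 ± 0.063) and Arhgap5 (-0.26 ± 0.060) were the lower ones, with adjusted p from 7.49e-06 to 0.00947. Arhgap22 (0.67 ± 0.097), Arhgef17 (0.38 ± 0.078), Arhgap17 (0.35 ± 0.084) and Arhgef7 (0.28 ± 0.073) were the higher ones, with adjusted p from 0.000720 to 0.0204.

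A fit without a single array has fewer residual degrees of freedom, and its part in the losses that follow was not tested. Some of the calls at 120 against 60 minutes were lost in such fits. Without the wild-type array of 60 minutes 7 members passed, and those of Arhgef17 (adjusted p = 0.0567), Arhgap17 (0.111), Arhgef7 (0.176) and Arhgap21 (0.0611) were lost. Arhgap17 (0.127) and Arhgef7 (0.0927) were also lost without the wild-type array of 120 minutes, and Arhgap5 without the mutant array of 60 (0.0831) or 120 minutes (0.0904). Other probe sets above the filter level differed by -0.38 for Arhgap28, -0.31 for Arhgap12, 0.31 for Arhgap5, and -0.04 and -0.02 for Arhgef17. Dim sets differed by -0.18 for Arhgap28, 0.26 and -0.09 for Arhgap12, -0.15, -0.02 and 0.31 for Arhgef18, -0.22 for Arhgef2 and -0.81 for Arhgef17. With all sets averaged Arhgef7 (adjusted p = 0.0684), Arhgap12 (0.0984), Arhgef18 (0.603), Arhgap5 (0.503) and Arhgef17 (0.790) did not pass. With genotype left out Arhgap28, Arhgap11a, Arhgap12 and Arhgef2 passed.

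**Figure D4:**
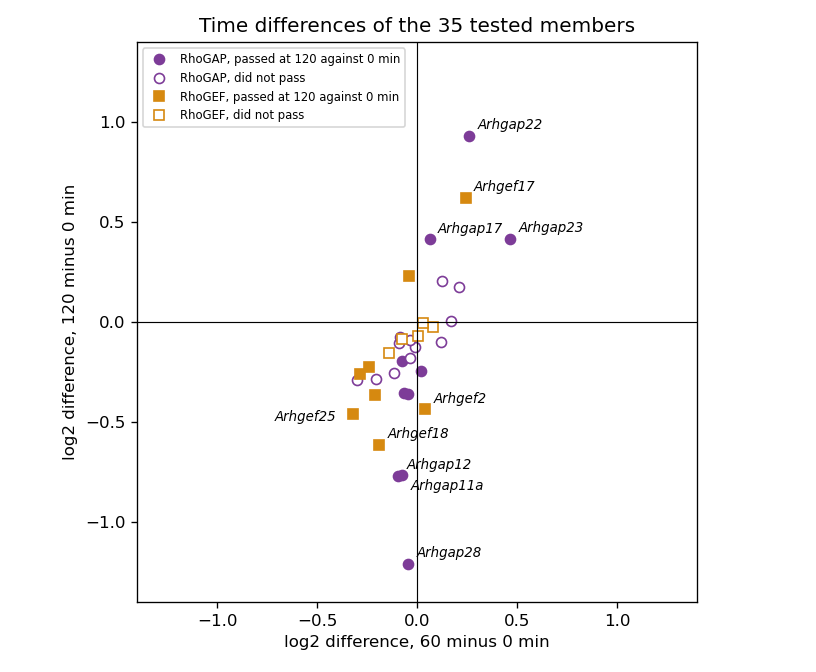
Log2 difference of each of the 35 tested members at 60 minus 0 minutes (x axis) and 120 minus 0 minutes (y axis), RhoGAPs as purple circles and RhoGEFs as orange squares, filled where the 120 minute difference passed. Points spread more along the vertical than along the horizontal axis, with Arhgap28 at -1.21 and Arhgap22 at 0.93 at the ends.

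The promoters of members that changed at least 1.5-fold by 120 minutes are shown because these members moved in both genotypes. Of 6 such genes, 4 had a promoter in a RefSeq table (GRCm38.p6, 250 bases before to 50 after the start), as did 41 of the 55 members. The sequences are given 5′ to 3′ for the start of Arhgap28 at chr17:68004059-68004358 (minus strand), Arhgap11a at chr2:113848612-113848911 (minus strand) and Arhgap22 at chr14:33216573-33216872 (plus strand). Capitals mark matches to the motifs named after them.
Arhgap28: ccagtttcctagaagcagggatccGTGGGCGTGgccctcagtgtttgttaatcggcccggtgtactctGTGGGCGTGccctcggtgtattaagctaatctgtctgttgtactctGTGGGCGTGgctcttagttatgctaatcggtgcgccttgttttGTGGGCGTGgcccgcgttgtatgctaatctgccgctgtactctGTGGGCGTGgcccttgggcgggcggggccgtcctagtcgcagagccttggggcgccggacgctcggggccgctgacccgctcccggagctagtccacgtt
Arhgap11a: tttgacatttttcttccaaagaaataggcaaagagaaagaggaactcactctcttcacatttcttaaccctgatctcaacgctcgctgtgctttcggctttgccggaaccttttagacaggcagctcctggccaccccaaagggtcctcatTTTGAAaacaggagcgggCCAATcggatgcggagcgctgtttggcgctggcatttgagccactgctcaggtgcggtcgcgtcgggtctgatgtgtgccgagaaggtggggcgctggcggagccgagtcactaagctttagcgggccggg
Arhgap22: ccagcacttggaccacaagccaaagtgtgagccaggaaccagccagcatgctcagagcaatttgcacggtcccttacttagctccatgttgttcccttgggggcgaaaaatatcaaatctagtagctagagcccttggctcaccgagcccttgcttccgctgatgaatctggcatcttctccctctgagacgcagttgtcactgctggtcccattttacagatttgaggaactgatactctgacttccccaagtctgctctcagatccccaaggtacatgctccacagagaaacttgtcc

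Both strands were searched for the CHR element TTTGAA and the CCAAT box CCAAT of cell cycle genes, the AP-1 site TGANTCA, the TEAD site GGAATG, the cyclic AMP response element TGACGTCA, the EGR site GCGNGGGCG and the CArG box of SRF. The Arhgap11a window held 1 TTTGAA, starting 99 bases before the start, and 1 CCAAT, starting 81 bases before it. Of 32851 promoters in the table, 17.9% held TTTGAA and 37.4% held CCAAT. AP-1 (7.81%), TEAD (14.7%), TGACGTCA (1.79%), EGR (5.55%) and CArG (1.63%) letters were not in the windows printed, nor in the second window of Arhgap28 and the 2 of Arhgef18.

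The Arhgap28 window held 5 copies of GTGGGCGTG, a word searched after it was seen there, which shares the letters GTGGGCG with the EGR motif where N is T. It was present in 1.21% of promoters, and 2 of the 32851, this window included, held at least 5 copies. The second Arhgap28 window held no copy. The match is a description of letters and was tied to no binding data.

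With 1 array per genotype and time, differences in response between genotypes have no test. No member had a response at least 0.3 (log2) apart between genotypes in the same direction at both later times, a limit reached by 2.35% of all genes tested. No member moved by at least 0.3 in opposite directions in the 2 genotypes at both times. The median absolute difference in response over the members was 0.10 at 60 and 0.12 at 120 minutes, against 0.11 and 0.11 over all genes tested.

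Members were ranked by the smaller of their 2 differences in response where both had the same sign, and Arhgap1 came first among those with a more positive response in mutant cells. It differed from 0 minutes by 0.28 at 60 and 0.33 at 120 minutes in mutant cells, against -0.02 and 0.09 in wild-type cells. Its intensities were 228, 280 and 290 in mutant and 265, 260 and 282 in wild-type cells, so the mutant array of 0 minutes was the low one. The next members with a more positive response in mutant cells were Arhgap9 (0.16 and 0.16 at 60 and 120 minutes), Arhgef17 (0.18 and 0.14), Arhgap23 (0.13 and 0.13) and Arhgef25 (0.20 and 0.12). Of the Arhgap9 arrays, 2 wild-type ones were below the filter level.

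In the other direction Arhgap44 came first, with a response of -0.29 at 60 and -0.46 at 120 minutes in mutant cells, against 0.16 and -0.26 in wild-type cells. Its mutant arrays of 60 and 120 minutes were below the filter level, so its mutant responses have no measured size. Arhgap44 was followed by Arhgap39 (differences in response of -0.19 and -0.29), Arhgef10 (-0.14 and -0.14), Arhgef12 (-0.08 and -0.28) and Arhgap26 (-0.08 and -0.07). For Arhgap39, the 0 minute arrays differed most between genotypes, by 0.51, against 0.32 at 60 and 0.21 at 120 minutes.

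The 20 members below the filter level had intensities between 1.69 and 48.4 on single arrays and were not tested. They were Arhgap4, Arhgap6, Arhgap8, Arhgap10, Arhgap15, Arhgap20, Arhgap20os, Arhgap25, Arhgap32, Arhgap33, Arhgap45, Arhgef3, Arhgef4, Arhgef6, Arhgef15, Arhgef16, Arhgef26, Arhgef33, Arhgef38 and Arhgef39. Among them Arhgef39, linked to cell division, read 37.7, 23.7 and 14.7 at 0, 60 and 120 minutes in mutant and 41.3, 27.0 and 11.3 in wild-type cells. It was named for its shape after its values were seen. Arhgap19, a RhoA GAP of mitosis just above the filter level, read 47.7, 36.0 and 35.6 in mutant and 45.0, 40.3 and 34.9 in wild-type cells and did not pass at 120 minutes (log2 -0.28 ± 0.13; adjusted p = 0.0928).

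Other genes of the pathway were taken from textbook lists. Of 6 tested G protein alpha subunit genes that couple such receptors, none passed between genotypes, at 60 against 0 or at 120 against 0 minutes. Of all genes 19.4%, 18% and 47% passed there. In these limma comparisons 3, 1 and 0 of the 6 had an unadjusted p under 0.05. At 120 against 60 minutes 1 was higher (16.7%, against 10.2% of all genes). This was Gna11, with a log2 difference of 0.18 ± 0.058 (limma adjusted p = 0.0487).

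Of 33 tested RhoGEF genes with other names, 1 was higher (3.03%, against 10.4% of all genes) and 5 were lower (15.2%, against 8.95%) in mutant cells. At 120 against 0 minutes 5 were higher (15.2%, against 16.2% of all genes) and 10 lower (30.3%, against 30.8%). Ngef, which encodes ephexin, differed by 1.34 ± 0.13 at 120 minutes, Plekhg2 by 1.17 ± 0.092 and the Cdc42 GEF gene Fgd4 by -1.56 ± 0.10. Of 21 tested RhoGAP genes with other names, 3 were higher (14.3%, against 10.4% of all genes) and 2 lower (9.52%, against 8.95%) in mutant cells. At 120 against 0 minutes 4 were higher (19%, against 16.2%) and 9 lower (42.9%, against 30.8%). The RhoA GAP gene Dlc1 was lower in mutant cells (log2 -0.56 ± 0.057), and Srgap3 (-1.19 ± 0.081) and Stard8 (-1.15 ± 0.11) were lower at 120 than at 0 minutes. The median difference between genotypes was 0.09 over the G protein genes, -0.05 over the RhoGEF genes with other names and -0.05 over such RhoGAP genes, against 0.01 over all genes tested. At 120 against 0 minutes these medians were 0.02, -0.11 and -0.13, against -0.09 over all genes.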

How the data were processed

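RNA was measured on 6 Affymetrix arrays. The authors deposited linear probe-set intensities, and the submitters' processing notes name PLIER, which combines a set's probes into 1 value, and Affymetrix Power Tools (1.14.3.1). Background correction and scaling between arrays are not given in the sources used here. The annotation table (platform annotation of GEO) paired 34945 of 45101 probe sets with 1 gene, 932 with several and 9160 with none, and 64 control sets were left out. No scaling was added, and log2(intensity + 16) was fitted in limma 3.58.1 (R 4.3.3) on genotype plus time. Variances were moderated by eBayes with its trend option, where 7.73 prior degrees of freedom joined the 2 residual ones. Tests were two-sided, with Benjamini-Hochberg adjustment over the 10916 genes tested. The procedure was run on simulated arrays with additive effects and independent noise drawn from the fitted variances. Such data hold no difference in response between genotypes, so they cannot show how such differences affect the calls.

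Time came from the labels and pairs the arrays of the genotypes. The deviations of arrays from their genotype's mean correlated across genes at r = 0.912 (0 minutes), 0.757 (60) and 0.871 (120) between genotypes, which holds the shared time response, and genes are not independent replicates.

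Members, lists and tests were chosen with earlier results of these data known. In each comparison up to 10 members per direction were named if called with 1 sign in each array pair, up to 5 per direction by difference in response, and up to 4 per list. Further probe sets of a named member are stated where their sign is opposite or their size is below 50%. Alternatives were other offsets, filters, shrinkage without the trend, all probe sets averaged, quantile normalization, leaving out each array, and models without time or genotype. Results of some other pathway lists are not reported here.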

Additional observations from a re-analysis of the deposited data

How the results depend on the processing

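The 10 members that passed between genotypes were 7 to 12 under other offsets, filters, shrinkage, probe-set averaging and quantile normalization, 8 to 10 when 1 array was left out, and 3 with no replicate block, that is with time left out. At 60 against 0 minutes the 4 members became 2 with all probe sets averaged and 1 to 5 without 1 array. With genotype left out of the limma model 0 passed, with 6 at an unadjusted p under 0.05. At 120 against 0 minutes the 18 became 11 with probe sets averaged, 11 with genotype left out and 11 to 18 without 1 array. At 120 against 60 minutes the 11 became 6 with probe sets averaged, 4 with genotype left out and 7 to 11 without 1 array. The cause of the losses under averaging was not tested, although most added probe sets of the named members lay below the filter level. A model without a term leaves the differences of that term in its residual, and the part of this in the losses was not tested. Of 40 named differences 1 changed sign, Arhgef17 at 120 against 60 minutes, with a log2 difference of -0.0383 under the mean of all probe sets. Calls were kept for 39 of 40 at offsets 1 and 64, 38 without the trend, 37 after quantile normalization and 26 with probe sets averaged. Quantile normalization moved the median of all genes by 0.004 to 0.05. No detection calls were used, so a level below the filter is not shown to be absent. Of all genes tested, 2115 passed between genotypes, against 91 with time left out, 1402 without the trend, 1389 without the 0 minute array of either genotype and 1363 without either 60 minute array. With genotype left out 585 passed in place of 1964 at 60 against 0 minutes, 2769 in place of 5127 at 120 against 0, and 1005 in place of 2741 at 120 against 60.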
